A study of Saccharomyces cerevisiae with 4 samples.

Results

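The hexose transporter genes HXT1 to HXT7, the glucose sensor genes SNF3 and RGT2 and the repressor gene MTH1 of budding yeast (Saccharomyces cerevisiae) were described across 4 Affymetrix YG-S98 arrays. They are 10 of the 6084 open reading frames named in the deposited annotation and were chosen by name, each found on 1 probe set. The cultures overexpressed KIN28, the gene of the kinase in TFIIH that phosphorylates RNA polymerase II, or POG1, the gene of a nuclear protein that promotes exit from pheromone arrest. Each culture was sampled 60 min after lithium chloride was added at 200 mM and before it was added (0 min), which gave 1 array for the KIN28 culture at 60 min, 1 for the KIN28 culture at 0 min, 1 for the POG1 culture at 60 min and 1 for the POG1 culture at 0 min. All cells grew at 25 °C in synthetic medium with 2% glucose to the exponential phase. The series title names an rsp5 mutation, but no label states which RSP5 allele the cells carried, the promoter or plasmid behind the overexpression, or whether 1 flask supplied both times. They name media without uracil, without leucine and without both, but not which culture had which, so the overexpressed gene cannot be told apart from plasmid and medium. Time in culture cannot be told apart from lithium either, since no untreated culture at 60 min was analysed here.

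Yeast takes up glucose by facilitated diffusion through Hxt proteins that differ in affinity. Snf3 and Rgt2 resemble these transporters but serve as receptors. When they bind glucose, Mth1 and its paralog Std1 are degraded and the repressor Rgt1 leaves the HXT promoters. In high glucose the Mig1 repressor, which the Snf1 kinase counters, keeps genes of high-affinity uptake and MTH1 low. HXT1 is the transporter gene best known for induction by high glucose, and its older name HOR4 comes from its response to high osmolarity.

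Signals are given as multiples of the median of their array, and a signal is above the floor when it exceeds the 20th percentile of the non-control probe sets, 0.211 to 0.226 of the median. Array medians ranged from 41.8 to 60.6 intensity units. The negative-control level, the 95th percentile of 13 negative-control sets, was 0.250 of the median in the KIN28 culture at 60 min and 0.456 at 0 min. In the POG1 culture it was 0.532 at 60 min and 0.568 at 0 min. The KIN28 gene gave 64.9 at 60 min and 71.9 at 0 min where it was overexpressed, and 0.873 at 60 min and 1.16 at 0 min in POG1 cells. The POG1 gene gave 75.1 at 60 min and 58.2 at 0 min where it was overexpressed, and 0.196 at 60 min and 0.219 at 0 min in KIN28 cells, so both overexpressed genes matched the labels. The 3' to 5' signal ratio of SRB4, a measure of RNA integrity, was 7.50 in the KIN28 culture at 0 min and between 3.70 and 4.65 on the other 3 arrays. That of ACT1 ranged from 1.31 to 1.92. For SPT15 the ratio was highest in the POG1 culture at 0 min, at 3.83, and was 2.79 in the KIN28 culture at 0 min. The part of RNA integrity in the results below was not tested.

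**Figure D1:**
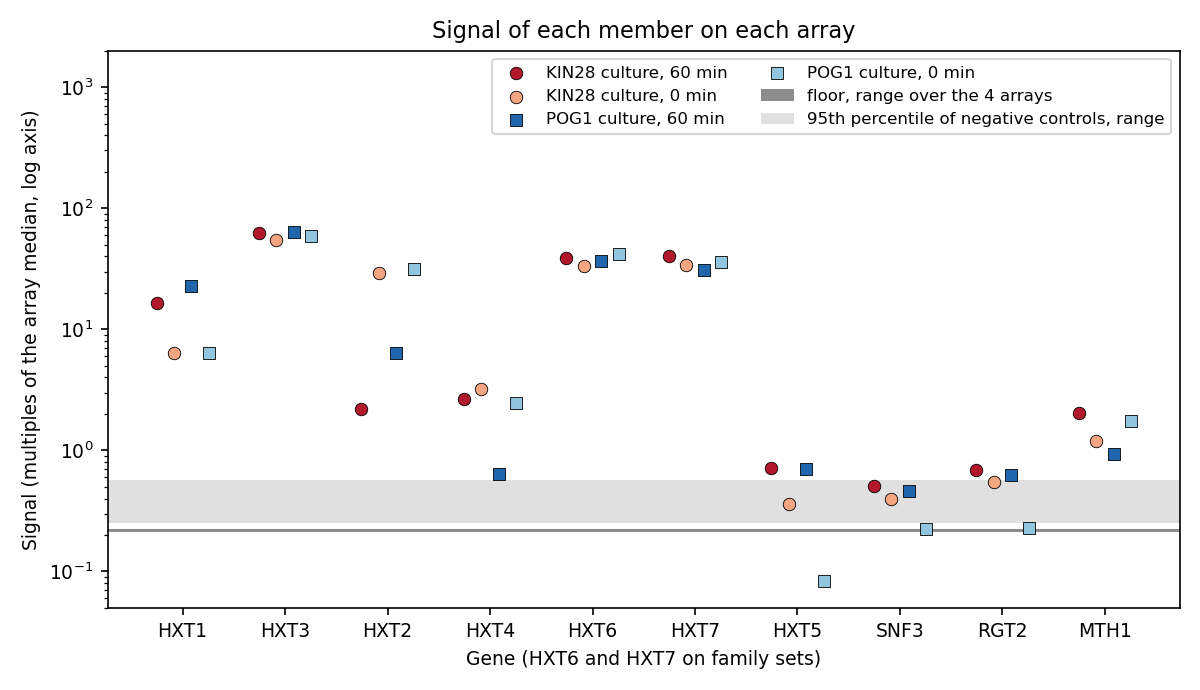
Signal of the 10 members on the 4 arrays, in multiples of the array median on a log axis; each point is 1 array, the dark band is the floor and the pale band is the range of the 95th percentile of the negative controls. HXT1 was higher and HXT2 lower at 60 min in both cultures. HXT5, SNF3 and RGT2 lay in or near the range of the negative controls on some arrays, and HXT4 lay near it in the POG1 culture at 60 min.

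The first comparison asks how the members stood after 60 min in lithium, over both cultures. HXT2 fell in lithium and HXT1 was higher in both cultures without passing the test. HXT3, HXT6 and HXT7, among the brightest sets on every array, stayed within 1.2-fold in each culture when scaled by the array median, and the other members differed between the cultures or lay near background. A difference was tested with limma, fitted to all 8507 probe sets above the floor on at least 1 array with culture as a block, so that each time had 2 arrays. It was called at a Benjamini-Hochberg adjusted p of 0.05 or less over all sets. All 10 members were in the fit, and HXT2 was the 1 member called lower, where 1.72% of all sets were called lower. No member, 0 of 10, was called higher, where 1.69% of all sets were, and 2 members were higher at an unadjusted p under 0.05. With HXT2 that makes 3 of 10 members at an unadjusted p under 0.05, near the 26.1% of all sets. The median log2 change was 0.08 over the members and 0.03 over all sets.

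HXT2 encodes a high-affinity transporter of growth in low glucose. Its signal was 2.19 at 60 min and 29.1 at 0 min in the KIN28 culture. In the POG1 culture it was 6.31 at 60 min and 31.5 at 0 min. The 0 min arrays were close to each other and the 60 min arrays lay far below both, the KIN28 culture lowest. The drop was 13.3-fold in the KIN28 culture and 4.99-fold in the POG1 culture. Of all sets compared, 0.15% were as low or lower in the KIN28 response and 1.67% in the POG1 response. In the fit HXT2 fell by 3.02 ± 0.43 on the log2 scale (SE, 2 arrays per time, lower in 2 of 2 cultures), with an adjusted p of 0.0486 in limma. The call lies at the threshold: its adjusted p was 0.216 with no floor on low signals and 0.0921 with no detection filter. Over all alternatives the adjusted p of HXT2 ranged from 1.26e-05 to 0.216. An array gives RNA of the whole culture, so fewer cells expressing a gene and less RNA per cell cannot be told apart.

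HXT1 encodes a low-affinity, high-capacity transporter. Its signal was 16.6 at 60 min and 6.37 at 0 min in the KIN28 culture. In the POG1 culture it was 22.6 at 60 min and 6.32 at 0 min. The 0 min arrays were nearly equal and the 60 min arrays lay above both. HXT1 was 2.61-fold higher in the KIN28 culture and 3.57-fold higher in the POG1 culture. Of all sets compared, 6.34% were as high or higher in the KIN28 response and 3.55% in the POG1 response. The log2 change in the fit was 1.61 ± 0.29 (SE, higher in 2 of 2 cultures) with an adjusted p of 0.0613 in limma. An alternative that lets the variance follow intensity gave 0.00398, and with sets above the floor on all 4 arrays it was 0.0252. Its adjusted p over all alternatives ranged from 0.00398 to 0.216.

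HXT3 encodes the other main low-affinity transporter and is used over a wide range of glucose. Its signal was 62.5 at 60 min and 55.2 at 0 min in the KIN28 culture, against 63.5 at 60 min and 59.3 at 0 min in the POG1 culture. All 4 arrays lay within a narrow band. With quantile normalization the KIN28 response of HXT3 was 0.73 on the log2 scale, against 0.18 with the array median. The log2 change was 0.14 ± 0.27 (SE), with a 95% interval from -0.58 to 0.86 and an adjusted p of 0.778 in limma. HXT3 was brighter than at least 98.04% of the sets on every array.

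HXT6 and HXT7 encode high-affinity transporters that are nearly identical in sequence. Each has a probe set of its own name, but both carry the suffix of sets shared within a gene family, so the transcripts of these genes cannot be told apart here. The HXT7 set was at 40.6 at 60 min and 34.3 at 0 min in the KIN28 culture, against 31.2 at 60 min and 35.8 at 0 min in the POG1 culture. The HXT6 set was at 39.0 at 60 min and 33.3 at 0 min in the KIN28 culture, against 36.8 at 60 min and 41.6 at 0 min in the POG1 culture. Both sets were slightly higher at 60 min in the KIN28 culture and slightly lower in the POG1 culture. Subtracting the log2 response of the HXT6 set from that of the HXT7 set left 0.02 in the KIN28 culture and -0.02 in the POG1 culture, while their differences between cultures lay 0.29 apart at 60 min and 0.26 apart at 0 min. The log2 change over both cultures was 0.02 ± 0.29 for each (SE), with adjusted p of 0.97 for HXT7 and 0.968 for HXT6 in limma. The 95% intervals ran from -0.75 to 0.79 for HXT7 and from -0.74 to 0.79 for HXT6. With quantile normalization the KIN28 response was 0.62 for the HXT7 set and 0.58 for the HXT6 set. The small sign change between cultures flips with scaling for the HXT6 set, whose POG1 response ranged from -0.51 to 0.11 over the alternatives.

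HXT4 encodes another high-affinity transporter and lies beside HXT1. Its signal was 2.64 at 60 min and 3.21 at 0 min in the KIN28 culture. In the POG1 culture it was 0.632 at 60 min and 2.48 at 0 min. The POG1 culture at 60 min was the single low array, and the other 3 lay between 2.48 and 3.21. The signal on that low array was near its negative-control level of 0.532, so the size of the drop is uncertain. HXT4 was 3.92-fold lower in the POG1 response and 1.21-fold lower in the KIN28 response. The log2 change over both was -1.13 ± 0.48 (SE) with an adjusted p of 0.235 in limma. The KIN28 response ranged from -0.37 to 0.17 over the alternatives and so has no settled sign, while the POG1 response ranged from -2.31 to -1.88.

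HXT5 encodes a transporter of moderate affinity that is known to be expressed in slow growth and stress rather than according to glucose. Its signal was 0.716 at 60 min and 0.362 at 0 min in the KIN28 culture. In the POG1 culture it was 0.698 at 60 min and 0.0832 at 0 min, the last below the floor. The 60 min arrays were close to each other and lay above both 0 min arrays. HXT5 was 1.98-fold higher in the KIN28 response and at least 3.31-fold higher in the POG1 response, where the floor stands in for the 0 min signal. The log2 change of 1.35 ± 0.32 (SE), which rests on that floor, had an adjusted p of 0.092 in limma. HXT5 exceeded the 95th percentile of the negative controls on 2 of 4 arrays, both at 60 min. With that level as the floor the log2 difference in the POG1 response was 0.30.

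The sensor genes were dim on all arrays. SNF3, the sensor of low glucose, was at 0.512 at 60 min and 0.399 at 0 min in the KIN28 culture, against 0.458 at 60 min and 0.226 at 0 min in the POG1 culture. It exceeded the 95th percentile of the negative controls on 1 of 4 arrays, the KIN28 culture at 60 min, where that level was lowest. RGT2, the sensor of high glucose, was at 0.687 at 60 min and 0.548 at 0 min in the KIN28 culture, against 0.625 at 60 min and 0.227 at 0 min in the POG1 culture. It exceeded that level on 3 of 4 arrays. For both, the POG1 culture at 0 min was the lowest array and lay just above the floor. SNF3 was 1.28-fold higher in the KIN28 response and 2.03-fold in the POG1 response, with a log2 change of 0.69 ± 0.31 (SE) and an adjusted p of 0.252 in limma. RGT2 was 1.25-fold higher in the KIN28 response and 2.75-fold in the POG1 response, with a log2 change of 0.89 ± 0.38 and an adjusted p of 0.232. With the negative controls as the floor the POG1 response of RGT2 was 0.14 on the log2 scale.

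MTH1 encodes the repressor subunit that holds Rgt1 on HXT promoters when glucose is scarce. Its signal was 2.04 at 60 min and 1.20 at 0 min in the KIN28 culture. In the POG1 culture it was 0.936 at 60 min and 1.75 at 0 min. The cultures went opposite ways, 1.69-fold higher in the KIN28 response and 1.87-fold lower in the POG1 response. Over both, the log2 change was -0.07 ± 0.48 (SE), with an adjusted p of 0.943 in limma. Each direction held in all 10 settings of scaling, floor or source of values, with log2 values from 0.66 to 1.21 in the KIN28 culture and from -1.24 to -0.85 in the POG1 culture.

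**Figure D2:**
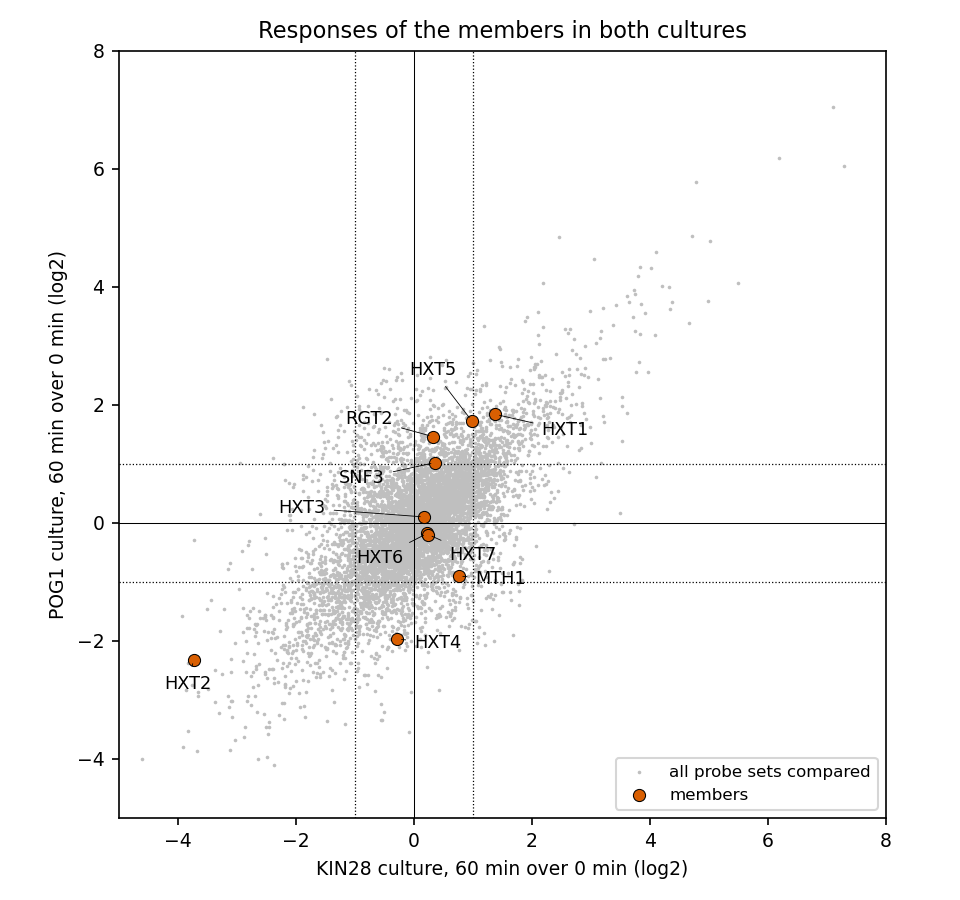
Log2 response (60 min over 0 min) of each member in the POG1 culture against that in the KIN28 culture, 1 array per point and time; grey points are all 7545 probe sets measured in both cultures and dotted lines mark 2-fold. HXT1 lies in the upper right and HXT2 in the lower left, HXT4 is low in the POG1 culture alone, MTH1 lies on opposite sides of 0, and the POG1 value of HXT5 is a bound.

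The next comparisons take each culture alone and, with 1 array per time, carry no test. In the KIN28 culture 1 of 10 members was at least 2-fold higher at 60 min (HXT1) and 1 was at least 2-fold lower (HXT2). Of all probe sets compared there, 13.1% were higher and 12.6% lower by that measure. For POG1, 4 of 10 were at least 2-fold higher (HXT1, HXT5, SNF3 and RGT2), where 13.8% of all sets were. Another 2 of 10 were lower there (HXT2 and HXT4), where 14.8% of all sets were. Of the 4 that were higher in the POG1 culture, HXT5, SNF3 and RGT2 had 0 min signals under the negative-control level (their 95th percentile), and with that level as the floor the members called in the POG1 response were 3 in place of 6. HXT1 was the 1 member at least 2-fold higher in both cultures, where 6.79% of all sets were, and HXT2 the 1 member lower in both, where 7.54% were. The median log2 change of the members was 0.29 in the KIN28 response and -0.04 in the POG1 response, against 0.05 and -0.01 over all sets.

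The difference of the responses is untested too, since it uses the last degree of freedom. It was at least 2-fold for 4 of 10 members. HXT4 and MTH1 had the higher response in the KIN28 culture, by 1.69 and 1.66 on the log2 scale, where 10% of all sets were at least 2-fold higher. HXT2 and RGT2 had the lower response in the KIN28 culture, by -1.41 and -1.13, where 9.36% of all sets were at least 2-fold lower. For RGT2 the sign turned with the negative controls as the floor, to 0.19, where that floor stands in for the POG1 signal at 0 min. Left as the deposited intensity or scaled by hybridization controls, the median difference of the responses over all sets was 0.80 or 0.87, against 0.09 with the array median. HXT2 then differed by -0.70 or -0.63 and RGT2 by -0.42 or -0.35, all under 2-fold. The HXT6 set differed by 1.12 or 1.19 and the HXT7 set by 1.15 or 1.22, past 2-fold. HXT4 and MTH1 were past 2-fold in the same direction in all 10 settings of scaling, floor or source of values.

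The comparison of cultures asks whether the members differed with the overexpressed gene. Before lithium 1 of 10 members was at least 2-fold higher in the KIN28 culture, where 5.73% of all sets were, and 0 of 10 lower, where 6.11% were. That member was RGT2, 2.41-fold higher against a POG1 signal near the floor. Its log2 difference of 1.27 became -0.05 with the negative controls as the floor, which then stands in for the POG1 signal. The bright genes were close: HXT1 differed by 0.01 on the log2 scale, HXT3 by -0.10, HXT2 by -0.11 and HXT7 by -0.06. At 60 min 2 of 10 members were at least 2-fold higher in the KIN28 culture, HXT4 by 4.19-fold and MTH1 by 2.18-fold, where 7.31% of all sets were. In the same arrays 1 of 10, HXT2, was 2.88-fold lower, where 6.5% were. Both HXT2 and MTH1 were under 2-fold in 1 setting, HXT2 at -0.74 on the log2 scale with hybridization controls and MTH1 at 0.96 with the 75th percentile. These values use the same 4 arrays as the responses and are not independent of them. Only 0.511% of all sets were as far above the POG1 culture at 60 min as HXT4, whose POG1 signal there lay near the negative-control level.

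Over both times, limma with time as a block called 0 of 10 members, and 0 had an unadjusted p under 0.05, where 8.24% of all sets did. With the variance allowed to follow intensity 0 were called and 2 were under 0.05 unadjusted, where 11.7% of all sets were. Of all sets, 1 was called higher in the KIN28 culture (0.0118%) and 1 lower (0.0118%), KIN28 and POG1 themselves. HXT4 had the largest log2 difference among the members, 1.22 ± 0.48 (SE, higher in 2 of 2 times), with a 95% interval from -0.08 to 2.52 and an adjusted p of 0.584 in limma. HXT2 was at -0.82 ± 0.43 (lower in 2 of 2 times), with an interval from -1.97 to 0.33 and an adjusted p of 0.617. HXT3 was at -0.06 ± 0.27, with an interval from -0.78 to 0.66. The intervals leave room for differences of over 1.5-fold even for the steadiest gene.

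**Figure D3:**
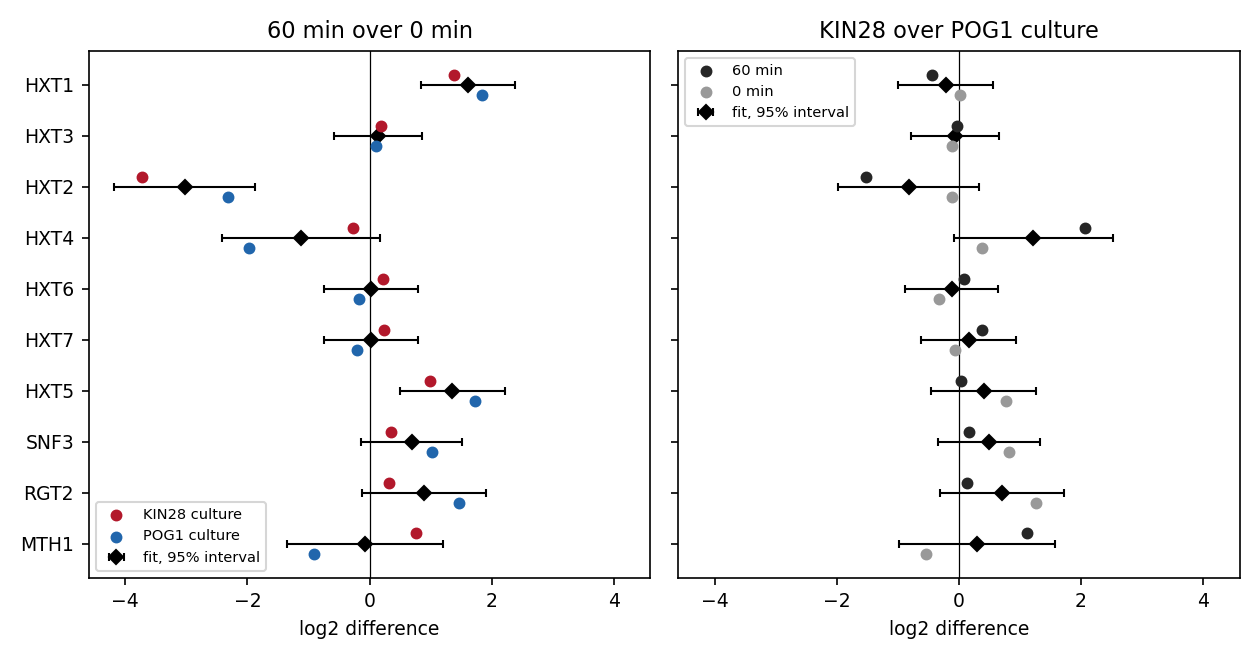
Log2 differences of the 10 members, 60 min over 0 min with culture as a block (left) and KIN28 over POG1 culture with time as a block (right); diamonds and bars are the limma estimate with its 95% interval, and dots are the single cultures or times. HXT2 and HXT1 lie off 0 in both cultures on the left, and on the right the interval of HXT4 reaches from -0.08 to 2.52; values of HXT5 that involve the POG1 culture at 0 min rest on the floor.

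By gene order in the R64 yeast annotation, members lie in runs: HXT4, HXT1 and HXT5 on chromosome VIII, with the small open reading frame AHT1 between HXT4 and HXT1, and HXT7, HXT6 and HXT3 on chromosome IV, with YDR344C between HXT6 and HXT3. SNF3, RGT2 and MTH1 lie elsewhere on chromosome IV. The run on chromosome VIII held different patterns: HXT1 at least 2-fold higher in both cultures, HXT4 lower in the POG1 culture, and HXT5 higher near background. The run on chromosome IV stayed within 1.2-fold in each response with the array median, and its log2 values reached 0.73 in the KIN28 response with quantile normalization. The deposited files name no genome build, so no coordinates are given.

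The pattern over the 4 arrays was set against 4846 other single-gene sets above the floor on all arrays, by the root mean square difference of log2 values centred on each gene's mean. The genes closest to HXT1 were NCE102 at 0.05, NTH1 at 0.08 and YAK1 at 0.09, which encode a plasma membrane eisosome protein, a trehalase and a kinase. NCE102 was 2.72-fold higher in the KIN28 response and 3.50-fold in the POG1 response. The closest to HXT2 were TLC1 at 0.04, the telomerase RNA gene, NSR1 at 0.21, a nucleolar protein gene, and GUA1 at 0.29, a GMP synthase gene. TLC1 was 14.1-fold lower in the KIN28 response and 5.20-fold lower in the POG1 response. Its KIN28 signal at 60 min, 0.238, was under the negative-control level of 0.250, so the size of the KIN28 drop is uncertain. With 4 arrays many genes can share a pattern, and the distances are a description only.

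Other genes of glucose sensing and uptake were read from 6 lists of 43 genes in all, on sets of their own. Genes called higher or lower over both cultures by limma numbered 1 of the 35 measured, ROG3, where 3.41% of all sets were called. The counts at an unadjusted p under 0.05 below stand beside 26.1% of all sets. In the relay below the sensors 0 of 5 genes were called or had an unadjusted p under 0.05, and 0 were 2-fold changed in either culture. STD1, the paralog of MTH1, named here after its values were seen, was at 1.67 at 60 min and 2.98 at 0 min in the KIN28 culture, against 2.08 at 60 min and 2.59 at 0 min in the POG1 culture. It was thus 1.78-fold and 1.25-fold lower, where MTH1 went opposite ways. RGT1, the repressor gene, was within 1.14-fold in both cultures.

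Among 10 genes of Snf1 and Mig repression, 0 were called by limma and 1 had an unadjusted p under 0.05. Their median log2 response was 0.28 in the KIN28 culture and 0.10 in the POG1 culture. None, 0 of 10, was at least 2-fold changed the same way in both cultures. Among 4 genes of hexose phosphorylation, the step after uptake, 0 were called and 3 had an unadjusted p under 0.05. The glucokinase gene GLK1 was 2.44-fold higher in the KIN28 response and 2.64-fold in the POG1 response, with an adjusted p of 0.0728 in limma. The hexokinase gene HXK1 was 2.64-fold and 2.39-fold higher, with an adjusted p of 0.0746. HXK2, the main hexokinase gene of growth on glucose and named after its values were seen, was 1.39-fold and 2.17-fold lower with an adjusted p of 0.203. The fourth gene, EMI2, which encodes a protein related to glucokinase and was also named after its values were seen, was 1.82-fold and 1.98-fold higher with an adjusted p of 0.129.

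Among 8 genes of glucose sensing through cyclic AMP, 0 were called and 2 had an unadjusted p under 0.05. PDE1, a cyclic AMP phosphodiesterase gene, was at 10.4 at 60 min and 1.67 at 0 min in the KIN28 culture, against 14.9 at 60 min and 4.57 at 0 min in the POG1 culture. It was 6.24-fold and 3.25-fold higher, with a log2 change of 2.17 ± 0.35 (SE) and an adjusted p of 0.0535 in limma. The last list held RSP5, which encodes the ubiquitin ligase that sends Hxt proteins to the vacuole, and 4 adaptor genes. ROG3 rose, with a log2 change of 1.92 ± 0.27 (SE, higher in 2 of 2 cultures) and an adjusted p of 0.0486 in limma, and ECM21 was 3.65-fold and 3.02-fold higher with an adjusted p of 0.0535. ROG3 was at 1.08 at 60 min and 0.263 at 0 min in the KIN28 culture, against 0.982 at 60 min and 0.282 at 0 min in the POG1 culture, with both 0 min signals under the negative-control level.

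Of 11 other members of the transporter family, HXT8 to HXT17 and the galactose transporter gene GAL2, 4 had sets of their own and 7 shared sets. HXT8 alone of those 4 was above the floor on all 4 arrays, at 0.297 at 60 min and 0.377 at 0 min in the KIN28 culture, against 0.255 at 60 min and 0.332 at 0 min in the POG1 culture. It exceeded the negative-control level only in the KIN28 culture at 60 min. HXT10 was not above the floor on any array. None of the 3 measured was called by limma (0, and 0 at an unadjusted p under 0.05). The set shared by HXT13, HXT15, HXT16 and HXT17 was at 0.400 at 60 min and 0.329 at 0 min in the KIN28 culture, against 1.16 at 60 min and 0.0510 at 0 min in the POG1 culture, with an adjusted p of 0.232 in limma. The POG1 culture at 60 min was its 1 high array, at least 5.49-fold above 0 min, or 2.04-fold with the negative controls as the floor. The set shared by HXT9 and HXT11 was 1.21-fold lower in both responses. A set named for HXT12 was below the floor on both 60 min arrays. It was at least 1.64-fold lower in the KIN28 response and 3.37-fold in the POG1 response, with an adjusted p of 0.131 in limma. Its KIN28 signal at 0 min, 0.371, was under the negative-control level. With the negative controls as the floor its POG1 drop was 1.38-fold. The last shared set was below the floor on all 4 arrays.

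**Figure D4:**
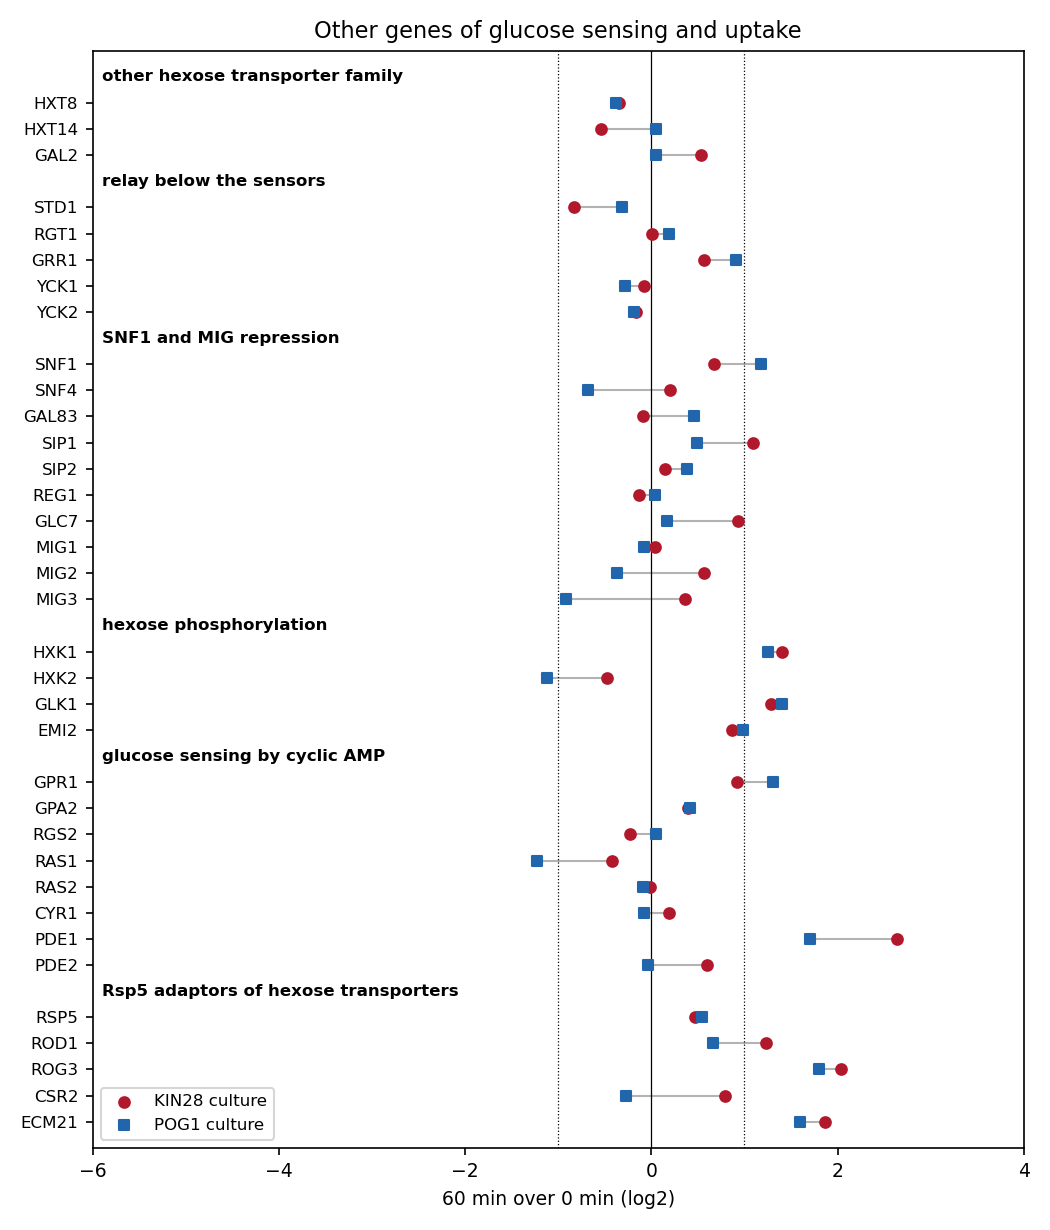
Log2 response of 35 genes of 6 lists with a set of their own above the floor on at least 1 array, 60 min over 0 min; circles are the KIN28 culture and squares the POG1 culture, 1 array per time, and dotted lines mark 2-fold. HXK1, GLK1, PDE1, ROG3 and ECM21 lie beyond 2-fold in both cultures, and the relay genes stay within it.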

How the data were processed

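Poly(A)-enriched RNA was labelled with biotin and hybridised to Affymetrix YG-S98 arrays, per the labels' protocols. The authors deposited an intensity for each of 9335 probe sets, 60 of them controls, and a ratio of that intensity to the array median, which was recomputed; the summary method is not given in the sources used here. Of the non-control sets, 6504 named 1 gene, 328 several and 2443 none. Signals were divided by the array median, raised to a floor (20th percentile of the non-control sets) and taken to log2. A set was compared when at least 1 array lay above the floor. With 1 array per group, single pairs carry no test and are called at 2-fold. Culture and time were fitted together in limma 3.58.1 (R 4.3.3) with empirical Bayes, 1 residual degree of freedom and a prior of 3.41; p-values thus measure only the spread between these arrays. The fit was also run on simulated data, with noise of SD 0.2 on the log2 scale and 200 sets changed alike in both cultures. That noise was independent between arrays, so the run does not show how the fit behaves on these data. Python 3.11.15, numpy 2.4.6, pandas 2.3.3 and matplotlib 3.10.9 were used.

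All members are named, and for the 6 lists up to 6 genes at least 2-fold changed in both cultures, with any exception marked. For a list gene with several sets, levels are their mean and the adjusted p is the lowest. The members and lists were chosen with earlier results of these data known. The sets of AHT1 and STD1 mention a member only in their description and were not counted as members. Scaling, floor, detection filter, fold threshold and the variance model were varied. Promoter sequences were not analysed here.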

Additional observations from a re-analysis of the deposited data

Results flagged for a closer look

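Members whose 2 cultures moved in opposite directions are given here, with 1 array per culture and time, so the difference was not tested. The MTH1 response was 0.76 on the log2 scale in the KIN28 culture and -0.90 in the POG1 culture, so the responses lay 1.66 apart. The HXT6 set had 0.23 in the KIN28 culture and -0.18 in the POG1 culture. The HXT7 set, which shares its family suffix, had 0.24 in the KIN28 culture and -0.20 in the POG1 culture. At least 2-fold opposite changes, which none of these 3 reached, were seen in 0.861% of all probe sets. The share of all sets with opposite changes of any size was not counted, so these 3 cannot be called unusual.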

How the results depend on the processing

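With 1 array per group, no replicate spread was measured and bright sets are the more reliable. The levels of HXT5, SNF3 and RGT2 are limited by background, and that of HXT4 in the POG1 culture at 60 min lies near it. The fit over time has culture as a block, and the labels give no replicate numbers for any other pairing. Where a value changed with a setting, the cause was not tested. Members called over both cultures, 1 in the values above, numbered 0 with no floor or no detection filter, and 2 with a floor at the 40th percentile, the negative controls as floor (chosen after seeing the data, as were no scaling and hybridization controls), all 4 arrays above the floor, or an intensity trend. All sets called in that fit, 290 above, numbered 0 with no floor (1658 at an unadjusted p under 0.05) or no filter (2409), 1482 with the 40th percentile, 1312 with the trend, 1088 with negative controls, 973 on all 4 arrays, 577 unscaled, 552 with the 75th percentile, 476 with hybridization controls and 436 with the median of sets above the floor. Sets called between cultures numbered 2 above and 0 to 7. Members called in the KIN28 response numbered 4 at 1.5-fold, unscaled or with hybridization controls and 1 at 3-fold, against 2. In the POG1 response they numbered 7 at 1.5-fold, 4 at 3-fold and 3 with the 40th percentile or negative controls, against 6. Between cultures at 0 min they numbered 3 at 1.5-fold, 2 with no floor and 0 at 3-fold or with either higher floor, against 1. At 60 min they numbered 1 at 3-fold and 2 with the 75th percentile, against 3. For the difference of responses they numbered 6 at 1.5-fold and 2 at 3-fold, against 4. Signs turned for the HXT7 change over time (-0.000953, 75th percentile) and, between cultures, for HXT3 (0.0225, quantile), HXT7 (-0.0205, unscaled), HXT5 (-0.141) and SNF3 (-0.186, both with negative controls), and HXT1 (0.177), HXT3 (0.327) and HXT6 (0.272, all with hybridization controls). With negative controls RGT2 turned to -0.0512 between cultures at 0 min and to 0.187 for the difference of responses. That floor differs by array, from 0.250 to 0.568 of the median. It stands in for the signal of HXT5 on both 0 min arrays and of RGT2 in the POG1 culture at 0 min. For SNF3 it does so everywhere but in the KIN28 culture at 60 min. The values of these genes with negative controls as the floor thus partly compare floors. Leaving out 1 culture only returns the response of the other culture, so it is no separate check. The change over time was then -0.90 or 0.76 for MTH1, -0.18 or 0.23 for HXT6 and -0.20 or 0.24 for HXT7. Leaving out 1 time likewise returns the difference between cultures at the other time. That was -0.44 or 0.0126 for HXT1, -0.0628 or 0.38 for HXT7, -0.54 or 1.12 for MTH1 and -0.32 or 0.0846 for HXT6. Unscaled, the median of all sets moved to 0.42 in the KIN28 response and -0.34 in the POG1 response. Another 630 values of single members stayed on the same side of 2-fold or of the adjusted p, but some changed in size, and some values under 2-fold in sign: the POG1 response of HXT6 was 0.11 with quantile normalization, against -0.18, and HXT1 between cultures at 0 min was -0.0068 with the 75th percentile, against 0.0126.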

Other observations

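The genes beside the transporter runs were read as well. SVF1, next to HXT3, was at 0.944 at 60 min and 0.484 at 0 min in the KIN28 culture, against 0.393 at 60 min and 0.916 at 0 min in the POG1 culture. Its log2 responses were 0.96 and -1.22 in these cultures, opposite in sign like those of MTH1. The POG1 signal of SVF1 at 60 min was under the negative-control level of 0.532. With the negative controls as the floor its POG1 drop was 1.72-fold, against 2.33-fold. PAL2, next to HXT5, has 2 probe sets. One was 2.59-fold higher in the KIN28 response and 2.04-fold in the POG1 response, with an adjusted p of 0.0898 in limma; the other was 1.83-fold and 1.69-fold higher. AHT1, between HXT4 and HXT1, was below the floor on both 60 min arrays and at 0.362 in the KIN28 culture and 0.397 in the POG1 culture at 0 min, both under the negative-control level. YHR095W and YDR344C were below the floor on all 4 arrays. YDR341C, next to HXT7, was at 30.2 at 60 min and 31.1 at 0 min in the KIN28 culture, against 27.7 at 60 min and 35.5 at 0 min in the POG1 culture.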
